A study of Mus musculus with 7 samples.

Results

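Metabotropic glutamate receptors are the G protein-coupled receptors for glutamate, and 6 genes of the family (Grm2, Grm3, Grm4, Grm5, Grm7 and Grm8) were followed among the 22248 genes quantified, together with their 32 transcripts. The genes were taken by symbol, and all 6 passed the filter on low counts. Sequencing libraries had been made from messenger RNA of hippocampal synaptoneurosomes, a fraction of sealed nerve terminals and the postsynaptic pieces that stay attached to them. All mice were C57Bl/6J wild-type females. Sub-chronic AM6545 treatment was represented by 4 libraries, lettered B, D, E and F, and vehicle treatment by 3, lettered B, D and E. AM6545 is a cannabinoid CB1 receptor antagonist that enters the brain poorly. Age, dose, duration and the number of mice behind a library are not given in the sources used here. The labels do not say that the libraries of a group came from separate animals, so p-values measure the spread between these libraries, which may be technical.

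The family falls into 3 groups by sequence and coupling. Group I receptors, represented here by Grm5, couple to Gq, activate phospholipase C and sit mainly around the postsynaptic density, where their activation can drive the synthesis of the endocannabinoid 2-arachidonoylglycerol. Group II (Grm2 and Grm3) and group III (Grm4, Grm7 and Grm8) couple to Gi/o, lower cyclic AMP and act largely as presynaptic brakes on transmitter release. In the hippocampus Grm2 is best known from dentate granule cells and their mossy fibres, Grm3 also from astrocytes, and Grm7 from the active zone of terminals facing particular interneurons. The question addressed was whether receptor mRNA, or the choice between receptor splice forms, differed between the synaptic fractions of AM6545-treated and vehicle-treated mice.

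Library totals ran from 19174649 to 25894733 estimated counts. Vehicle B stood apart from the other libraries on the leading principal component, which held 34.2% of the variance, and 9.83% of its counts came from mitochondrial genes, against 5.07% to 6.66% elsewhere. Scores on that component were 41.1, 11.5 and -6.07 in vehicle B, D and E. In AM6545 B, D, E and F they were -21.7, -8.37, -10.0 and -6.47. The groups thus did not overlap on it, though vehicle E lay next to AM6545 F. The 5 neuron markers were all detected and their summed level was 7475 to 8081 CPM, but the 5 oligodendrocyte markers summed to 14529 to 18854 CPM and the 6 astrocyte markers to 2680 to 3880 CPM, so the fraction held RNA of glia as well. CPM are counts divided by each library's TMM-adjusted size. No marker of the 13 cell type and region lists was at 0 in all libraries. The 3 CA1 pyramidal cell markers summed to 322 to 373 CPM in AM6545 and 374 to 431 CPM in vehicle. Their groups did not overlap but nearly met, at 372.8 and 373.9 CPM, and 13.8% of all single genes had groups without overlap. Of the 3 markers, 1 was at an unadjusted p under 0.05, which 14.6% of all genes reached. The sums of all other lists overlapped, among them the 3 dentate granule cell markers (218 to 266 and 237 to 292 CPM). Of the 6 microglia markers 5 were lower in AM6545, 4 of them at an unadjusted p under 0.05, with sums of 622 to 646 and 638 to 887 CPM. All 4 choroid plexus markers were lower, none at that p, with sums of 410 to 1954 and 1559 to 2775 CPM. In bulk RNA of this kind, fewer particles from a cell type and less mRNA per particle cannot be told apart.

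Compared per transcript length, the group II and postsynaptic group I receptors made up most of the receptor mRNA, and the group III receptors other than Grm7 were scarce. On this scale (counts of each transcript divided by its annotated length, summed per gene and scaled to the same total in each library, as for TPM) the level of Grm2 ranged from 35.7 to 51.4 with a median of 39.6 over the 7 libraries. Grm5 followed with a median level of 31.9 (30.4 to 42.2) and Grm3 with 28.9 (21.2 to 37.5). Grm7, the group III receptor of the active zone, had a median level of 19.4 (14.8 to 26.7). Grm4 and Grm8 lay far below, with median levels of 3.68 (3.44 to 5.17) and 2.81 (2.27 to 5.61). Grm2 made up a median of 30.5% of the 6 receptors' level, Grm5 25.8%, Grm3 22.4%, Grm7 15.7%, Grm4 2.85% and Grm8 2.23%.

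The order Grm2, Grm5, Grm3, Grm7, Grm4 held in 7 of 7 libraries at each step, and Grm4 was above Grm8 in 5 of 7. The median ratio between neighbours was 1.17 for Grm2 over Grm5, 1.13 for Grm5 over Grm3 and 1.47 for Grm3 over Grm7, and the ranges of these neighbours over the libraries overlapped. Only the step from Grm7 to Grm4 was free of overlap, with a median ratio of 5.65 (2.87 to 5.97). The places of the leading 3 depended on the length assigned to each gene: with the longest transcript of each gene as its length, Grm2 was above Grm5 in 4 of 7 libraries and Grm5 above Grm3 in 2 of 7, with a median ratio of 0.969. The order of these 3 receptors thus changed with the length used.

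**Figure D1:**
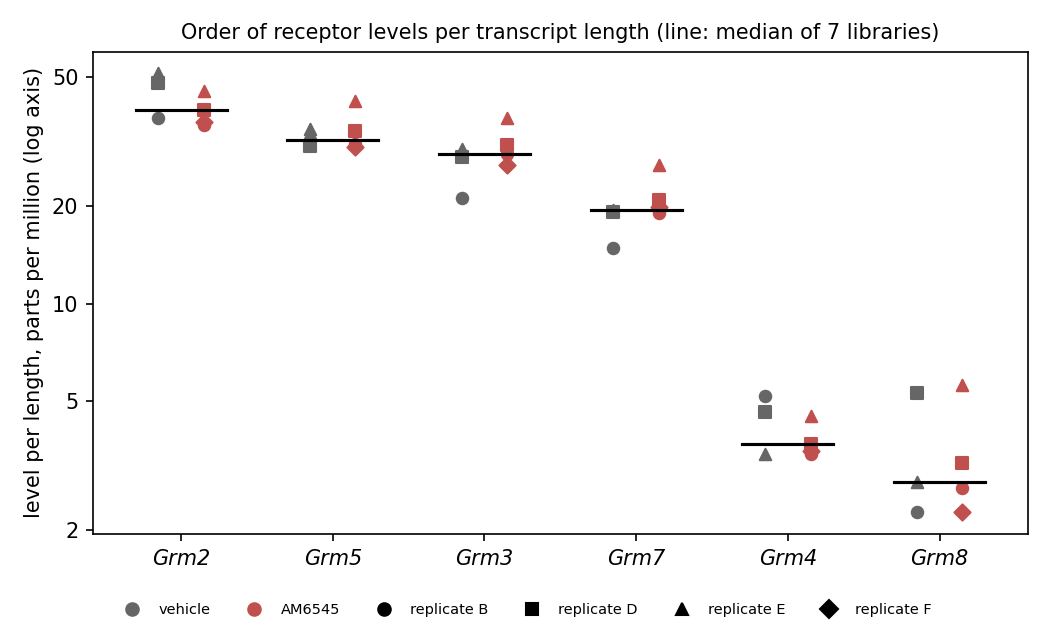
Level per transcript length of each receptor gene, as a share of each library's total on a log axis, with 1 point per library (grey vehicle, red AM6545, shape for the replicate letter) and a line at the median of the 7 libraries. Grm2, Grm5 and Grm3 lie between 21.2 and 51.4, Grm7 between 14.8 and 26.7, and Grm4 and Grm8 at or below 5.61.

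Between the treatments, none of the 6 receptor genes passed an adjusted p of 0.05 (edgeR's quasi-likelihood test with Benjamini-Hochberg adjustment over all 14654 genes tested), a threshold that 0.00682% of all genes passed. Grm2 and Grm4 were lower in AM6545 at an unadjusted p under 0.05, which 14.6% of all genes reached (8.70% lower and 5.86% higher). In none of the 6 was every AM6545 library on the same side of every vehicle library, a separation seen in 13.8% of all genes (7.19% lower and 6.62% higher). The estimates of 3 members (Grm3, Grm7 and Grm8) were above 0, as were 51.4% of all genes. Settings that called more genes did not call a receptor: DESeq2 called 2.44% of the genes it tested, limma-voom 2.69%, and edgeR without vehicle E 6.38%. Over all 18 alternative settings the lowest adjusted p of a member was 0.0662, for Grm4 with limma-voom. The members are taken below by group.

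Grm5 (ENSMUSG00000049583.16, chr7:87584168-88134907 on the plus strand of GRCm38) encodes the group I receptor mGlu5 and had the highest count of the 6. Its level was 112, 124, 146 and 112 CPM in AM6545 B, D, E and F and 141, 111 and 123 CPM in vehicle B, D and E. AM6545 E and vehicle B were the high libraries, and the other 5 lay close together across both groups. The mean was 123 ± 15.9 CPM (SD, n = 4) after AM6545 against 125 ± 15.1 CPM (SD, n = 3) after vehicle. The log2 fold change was -0.02 with a standard error of 0.12, and its 95% interval ran from -0.28 to 0.24 (adjusted p = 0.950, edgeR).

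Grm5 is spliced into a shorter a form and a longer b form that differ by an insert in the intracellular tail, which carries the Homer-binding end of the receptor. The insert, 96 bases at chr7:88116193-88116288 (plus strand, GRCm38), is a coding exon of Grm5-204 and is shown in capitals between 12 bases of the neighbouring exons, because it is the sequence that separates the 2 forms counted here.
Grm5-204 insert: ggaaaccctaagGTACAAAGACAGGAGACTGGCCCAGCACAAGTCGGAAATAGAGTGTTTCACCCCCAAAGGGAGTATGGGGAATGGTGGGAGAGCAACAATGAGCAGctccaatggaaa
Being a multiple of 3 long, the insert keeps the reading frame and lengthens the coding sequence from 1171 codons in Grm5-202 to 1203 in Grm5-204. The 2 annotated transcripts also differ after the stop codon, with 4038 bases in Grm5-202 and 785 in Grm5-204, so their counts do not rest on the insert alone.

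In every library most coding Grm5 counts were assigned to Grm5-202, which lacks the insert, but reads over the insert itself were not counted. Grm5-204 made up 7.66%, 6.14%, 9.23% and 3.36% of the coding Grm5 counts in AM6545 B, D, E and F and 1.54%, 3.78% and 7.69% in vehicle B, D and E. Both groups covered most of the same range. The mean share was 6.60 ± 2.50% (SD, n = 4) after AM6545 against 4.34 ± 3.11% (SD, n = 3) after vehicle, or 11.2 ± 4.07% and 7.42 ± 5.18% per transcript length. The counts of Grm5-204 differed by a log2 fold change of 0.69 (standard error 0.58, adjusted p = 0.793 over 33962 transcripts, edgeR), with values of 0.33 without vehicle B, 0.36 without AM6545 E and 1.38 without vehicle E. The counts of Grm5-202 differed by -0.05 (standard error 0.13, adjusted p = 0.941). A coding transcript without annotated untranslated ends, Grm5-201, had a count of 0 in all 7 libraries. The short noncoding Grm5-205, with a mean of 14.7 counts, had 9.64, 12.1, 14.1 and 9.07 counts in AM6545 B, D, E and F and 16.7, 20.1 and 21.4 in vehicle B, D and E. Its CPM was lower in every AM6545 library than in any vehicle library, as in the 10.8% of transcripts whose groups did not overlap, with a log2 fold change of -0.87 (standard error 0.40, adjusted p = 0.621, edgeR). Grm5-206, which retains an intron and had a mean of 17.2 counts, had a log2 fold change of -0.02 (standard error 0.60, edgeR).

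Grm2 (ENSMUSG00000023192.13, chr9:106643095-106656082 on the minus strand of GRCm38) encodes mGlu2, the group II receptor of mossy fibre terminals, and was the most abundant member per length. Its level was 67.7, 76.3, 84.2 and 65.7 CPM in AM6545 B, D, E and F. In vehicle B, D and E it was 82.5, 87.9 and 104 CPM. The 3 AM6545 libraries other than E lay below all vehicle libraries, while AM6545 E passed vehicle B. The mean was 73.5 ± 8.49 CPM (SD, n = 4) after AM6545 against 91.6 ± 11.4 CPM (SD, n = 3) after vehicle, a log2 fold change of -0.32 with a standard error of 0.12 and a 95% interval of -0.57 to -0.06. Its unadjusted p was 0.0192, and after adjustment over all genes it did not pass (adjusted p = 0.267, edgeR).

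The Grm2 estimate kept its sign in 18 of 18 alternative settings, all drawn from the same 7 libraries, and was at an unadjusted p under 0.05 in 14 of them. It was not at that p without AM6545 F (-0.27) or without vehicle E (-0.21). Nor was it with the replicate letter as a factor in the fit (-0.27, or -0.23 with a GC and length correction added). Grm2 transcripts are rich in G and C (57.7%, above 87.4% of the genes tested), and libraries differed in how counts depended on GC content. Corrected for GC content and length, the estimate was -0.28 (adjusted p = 0.729, edgeR). Most of the marker lists held more genes lower than higher in AM6545. Lower were 2 of 3 dentate granule cell, 3 of 3 CA1, 5 of 6 microglia, 4 of 4 choroid plexus and 4 of 5 oligodendrocyte markers. The endothelium, CA3 pyramidal cell and striatum lists leaned higher, and the astrocyte list was even at 3 and 3. The part of these cell types in the Grm2 difference was not tested. An annotated gene on the opposite strand, Gm28111, shares 470 exonic bases with Grm2, and whether strand was used in counting is not given in the sources used here.

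Grm2 counts were divided between 2 coding transcripts. Grm2-201 encodes the full receptor of 872 codons, and Grm2-203 encodes 594 codons because 834 bases (278 codons) are missing from the inside of the 1076-base exon at chr9:106647151-106648226. The missing stretch lies at chr9:106647271-106648104 on the minus strand (GRCm38). Its ends are shown because they define the shorter form: capitals mark the outermost 20 bases of the missing stretch, and lower case the 20 bases that both transcripts keep.
Grm2 start of the dropped stretch: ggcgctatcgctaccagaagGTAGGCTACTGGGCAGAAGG
Grm2 end of the dropped stretch: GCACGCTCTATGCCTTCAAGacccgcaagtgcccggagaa
The stretch begins with GT and ends with AG, and 3 bases are the same at both of its junctions, so the exact cut can be placed in more than 1 way. Grm2-203 took 23.2%, 19.7%, 21.4% and 26.4% of the counts of both transcripts in AM6545 B, D, E and F and 23.1%, 26.0% and 21.3% in vehicle B, D and E. The share of counts thus stayed near 23% in both groups, with means of 22.7 ± 2.85% (SD, n = 4) and 23.5 ± 2.38% (SD, n = 3). Per transcript length, with 2111 bases in Grm2-203 and 4711 in Grm2-201, the mean shares were 39.5 ± 3.86% after AM6545 and 40.6 ± 3.19% after vehicle.

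Both Grm2 transcripts were lower in AM6545 by a like amount. Grm2-203 fell short of every vehicle library in all 4 AM6545 libraries, and 10.8% of all transcripts had groups that did not overlap. Its means were 16.5 CPM in AM6545 and 21.4 CPM in vehicle, a log2 fold change of -0.37 (standard error 0.11, unadjusted p = 0.0145, adjusted p = 0.559, edgeR). Grm2-201 overlapped between the groups at a log2 fold change of -0.30 (standard error 0.14, adjusted p = 0.636, edgeR). In transcript usage the Simes p-value of Grm2 was 0.935 before adjustment (edgeR's diffSpliceDGE), so no shift between the 2 forms was detected.

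Grm3 (ENSMUSG00000003974.7, chr5:9485541-9725170, minus strand) encodes mGlu3, the group II receptor found on neurons and astrocytes, and has 1 annotated transcript. Its level was 45.6, 47.8, 57.0 and 41.5 CPM in AM6545 B, D, E and F and 39.0, 44.3 and 49.98 CPM in vehicle B, D and E. The groups were interleaved, with AM6545 E highest and vehicle B lowest. The mean was 47.9 ± 6.56 CPM (SD, n = 4) against 44.4 ± 5.51 CPM (SD, n = 3), a log2 fold change of 0.11 (standard error 0.13, 95% interval -0.17 to 0.39, adjusted p = 0.698, edgeR). After correction for GC content and length it was -0.03, without AM6545 E 0.02 and without vehicle B 0.03.

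Grm7 (ENSMUSG00000056755.14, chr6:110645581-111567230, plus strand) encodes mGlu7, a group III receptor of low glutamate affinity placed in the active zone. It had 38.9, 41.7, 52.5 and 40.0 CPM in AM6545 B, D, E and F and 34.1, 37.9 and 42.9 CPM in vehicle B, D and E. Vehicle B was lowest and AM6545 E highest, and the remaining 5 libraries overlapped. The mean was 43.3 ± 6.28 CPM (SD, n = 4) after AM6545 against 38.3 ± 4.43 CPM (SD, n = 3) after vehicle, with a log2 fold change of 0.18 (standard error 0.13, 95% interval -0.10 to 0.45, adjusted p = 0.522, edgeR). The sign was the same in 18 of 18 alternatives, and the value was 0.05 after correction for GC content and length, 0.07 without AM6545 E and 0.10 without vehicle B. The opposite-strand gene Gm20387 shares 130 exonic bases with Grm7.

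Grm7 is spliced at its 3′ end into an a form of 915 codons (Grm7-202) and a b form of 922 codons (Grm7-201), which differ in the last residues of the tail, where the a form binds the scaffold Pick1. The ends of the 2 coding sequences are shown in capitals after 12 bases that both share (plus strand, GRCm38): the a end lies at chr6:111566018-111566064, and the b end begins an extra exon of 92 bases and lies at chr6:111501510-111501577.
Grm7-202 tail: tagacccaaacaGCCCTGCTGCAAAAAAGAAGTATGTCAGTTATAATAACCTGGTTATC
Grm7-201 tail: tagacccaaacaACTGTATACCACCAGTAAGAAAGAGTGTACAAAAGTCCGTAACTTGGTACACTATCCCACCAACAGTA
The transcripts also differ after the stop codon, with 1163 annotated bases in Grm7-202 and 71 in Grm7-201.

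The a form made up most Grm7 counts. The b form took 9.61%, 7.12%, 6.67% and 3.97% of the counts of both in AM6545 B, D, E and F and 2.27%, 5.27% and 3.14% in vehicle B, D and E. It was above all vehicle libraries in AM6545 B, D and E, and AM6545 F lay inside the vehicle range. The mean share was 6.84 ± 2.31% (SD, n = 4) after AM6545 against 3.56 ± 1.54% (SD, n = 3) after vehicle. Per transcript length the means were 8.95 ± 2.96% and 4.71 ± 2.02%. Grm7-201 had 84.3, 76.1, 72.8 and 40.4 counts in AM6545 B, D, E and F and 19.0, 48.6 and 24.3 in vehicle B, D and E, the larger of the differences among the receptor transcripts at an unadjusted p under 0.05. Its log2 fold change was 1.10 (standard error 0.44, unadjusted p = 0.0424, adjusted p = 0.579, edgeR). Without AM6545 B, D or E, or without vehicle B or E, it was 0.82 to 1.09 and not at an unadjusted p under 0.05. It stayed at that p without AM6545 F (1.31) or vehicle D (1.49). Grm7-202 had a log2 fold change of 0.13 (standard error 0.14, adjusted p = 0.844, edgeR), and the transcript Grm7-204, annotated for nonsense-mediated decay, 0.94 (standard error 1.01, adjusted p = 0.839, edgeR). In transcript usage Grm7 did not pass either (Simes p-value of 0.618 before adjustment and 0.99998 after, edgeR's diffSpliceDGE).

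Grm4 (ENSMUSG00000063239.18, chr17:27422387-27521403, minus strand) encodes mGlu4, a group III receptor best known from cerebellar granule cell terminals, and was rare here. It had 7.41, 7.92, 10.3 and 7.46 CPM in AM6545 B, D, E and F and 12.5, 10.9 and 8.63 CPM in vehicle B, D and E. AM6545 B, D and F lay below every vehicle library, and AM6545 E lay between the vehicle libraries. The mean was 8.27 ± 1.37 CPM (SD, n = 4) after AM6545 against 10.7 ± 1.96 CPM (SD, n = 3) after vehicle, a log2 fold change of -0.38 (standard error 0.16, 95% interval -0.73 to -0.02, unadjusted p = 0.0381, adjusted p = 0.316, edgeR). The sign held in 18 of 18 alternatives, but the unadjusted p was under 0.05 in 9 of them. Grm4 transcripts have a GC content of 61.1%, above 97.1% of the genes tested, and with the GC and length correction the estimate was -0.26 (adjusted p = 0.760). Without vehicle B, the library that stood apart, it was -0.25 (adjusted p = 0.864, edgeR).

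At the transcript level Grm4 rested on few counts. Grm4-201, which encodes 912 codons, held 100% of the Grm4 counts in AM6545 E and vehicle E but 57.5% in vehicle B. The rest went almost wholly to Grm4-206 in AM6545 D (53.4 counts) and vehicle B (131 counts) and to Grm4-207 in AM6545 B and F (46.2 and 49.3 counts). Each of those transcripts was at 0 in the other 5 libraries and was not tested. Grm4-201 had a log2 fold change of -0.38 (standard error 0.28, adjusted p = 0.761, edgeR).

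Grm8 (ENSMUSG00000024211.16, chr6:27275119-28135178, minus strand) encodes mGlu8, a presynaptic group III receptor, and was the lowest of the 6. Its level was 5.23, 5.71, 9.71 and 4.18 CPM in AM6545 B, D, E and F and 4.69, 6.46 and 5.53 CPM in vehicle B, D and E. AM6545 E alone was high, AM6545 F was the lowest of all, and the vehicle libraries lay between them. The mean was 6.21 ± 2.42 CPM (SD, n = 4) against 5.56 ± 0.886 CPM (SD, n = 3). The log2 fold change was 0.15 (standard error 0.25, adjusted p = 0.795, edgeR), and the 95% interval of -0.40 to 0.71 was the widest of the members. Without AM6545 E it was -0.14. The microRNA gene Mir592 overlaps 96 exonic bases of Grm8 on the same strand.

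Grm8 also has alternative tails, both of them leaving a receptor of 908 codons. Grm8-202 and Grm8-203 extend the exon before the last by 55 bases and end there in frame, while Grm8-201 reads on into the last exon. The capitals show the coding ends that set them apart after 12 shared bases (minus strand, GRCm38), at chr6:27275648-27275694 for Grm8-201 and chr6:27285688-27285734 for Grm8-202.
Grm8-201 tail: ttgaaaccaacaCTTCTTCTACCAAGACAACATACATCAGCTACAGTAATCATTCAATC
Grm8-202 tail: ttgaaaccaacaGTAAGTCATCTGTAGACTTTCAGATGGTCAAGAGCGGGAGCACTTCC
The extended form predominated: it held 92.5%, 84.4%, 75.6% and 100% of the counts of the 3 transcripts in AM6545 B, D, E and F and 89.2%, 75.2% and 80.5% in vehicle B, D and E. The groups overlapped, with means of 88.1 ± 10.5% (SD, n = 4) and 81.6 ± 7.09% (SD, n = 3). Only 33 bases are annotated after the stop codon of Grm8-201, against 581 and 572 in Grm8-202 and Grm8-203. Within the extended form, Grm8-202 was listed at 0 in vehicle D and Grm8-203 at 0 in AM6545 B and vehicle E, so the division between these 2 near-identical transcripts was not used. The log2 fold changes were 1.03 (standard error 1.20) for Grm8-202, -0.87 (standard error 1.52) for Grm8-203 and -0.07 (standard error 1.22) for Grm8-201, with adjusted p-values of 0.852, 0.910 and 0.993 (edgeR).

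Across all splice forms, 14 of the 32 receptor transcripts passed the low-count filter and 8 had a count of 0 in every library. None of the 14 passed an adjusted p of 0.05, which 0.0177% of the 33962 transcripts tested did. Grm2-203 and Grm7-201 were at an unadjusted p under 0.05, against 8.39% of all transcripts. Groups did not overlap for 2 transcripts (Grm2-203 and Grm5-205), against 10.8% of all transcripts. Transcript usage could be tested for Grm2, Grm5, Grm7 and Grm8, and none of the 4 passed (62 of 8691 genes, 0.713%, did), nor was any of them at an unadjusted Simes p under 0.05 (3.92% of genes).

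**Figure D2:**
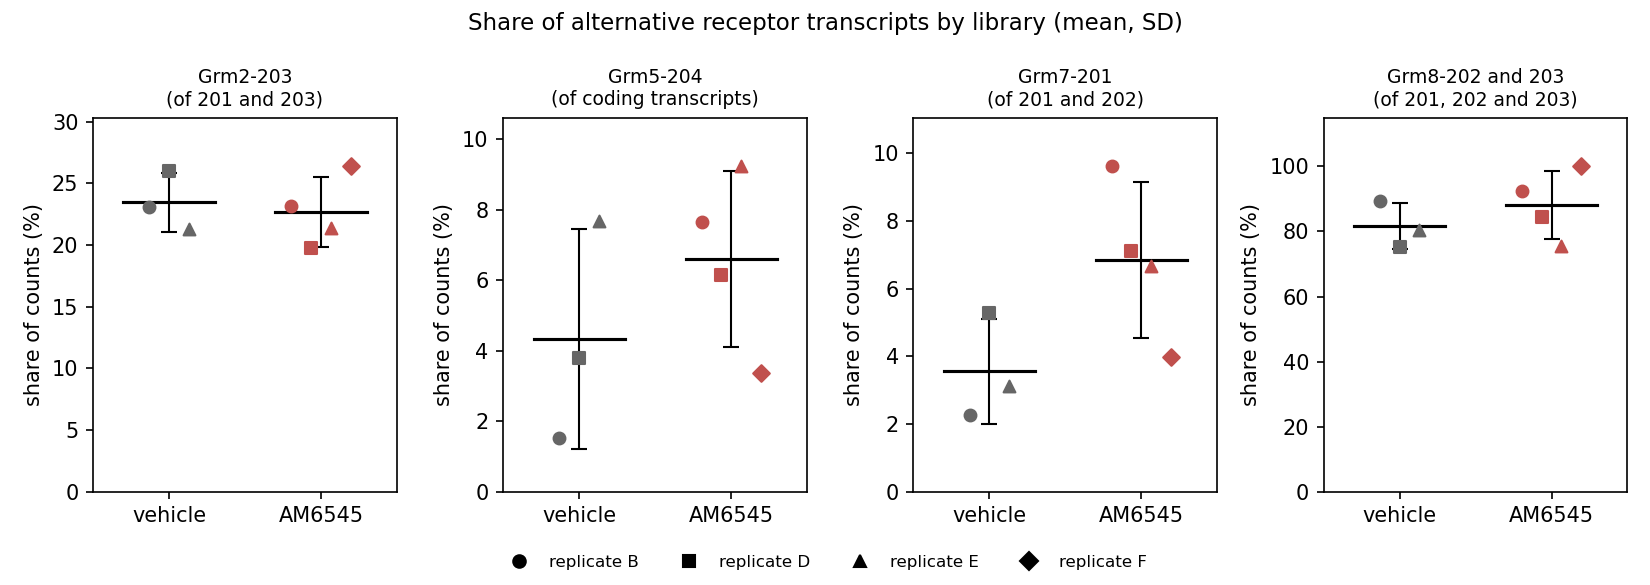
Share of counts (%) taken by Grm2-203, the insert-containing Grm5-204, the b form Grm7-201 and the extended forms of Grm8, with 1 point per library (grey vehicle, red AM6545, shape for the replicate letter), a bar at the group mean and an error bar of 1 SD. The groups overlap in all 4 panels, with the mean share of Grm7-201 at 3.56% in vehicle and 6.84% in AM6545.

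**Figure D3:**
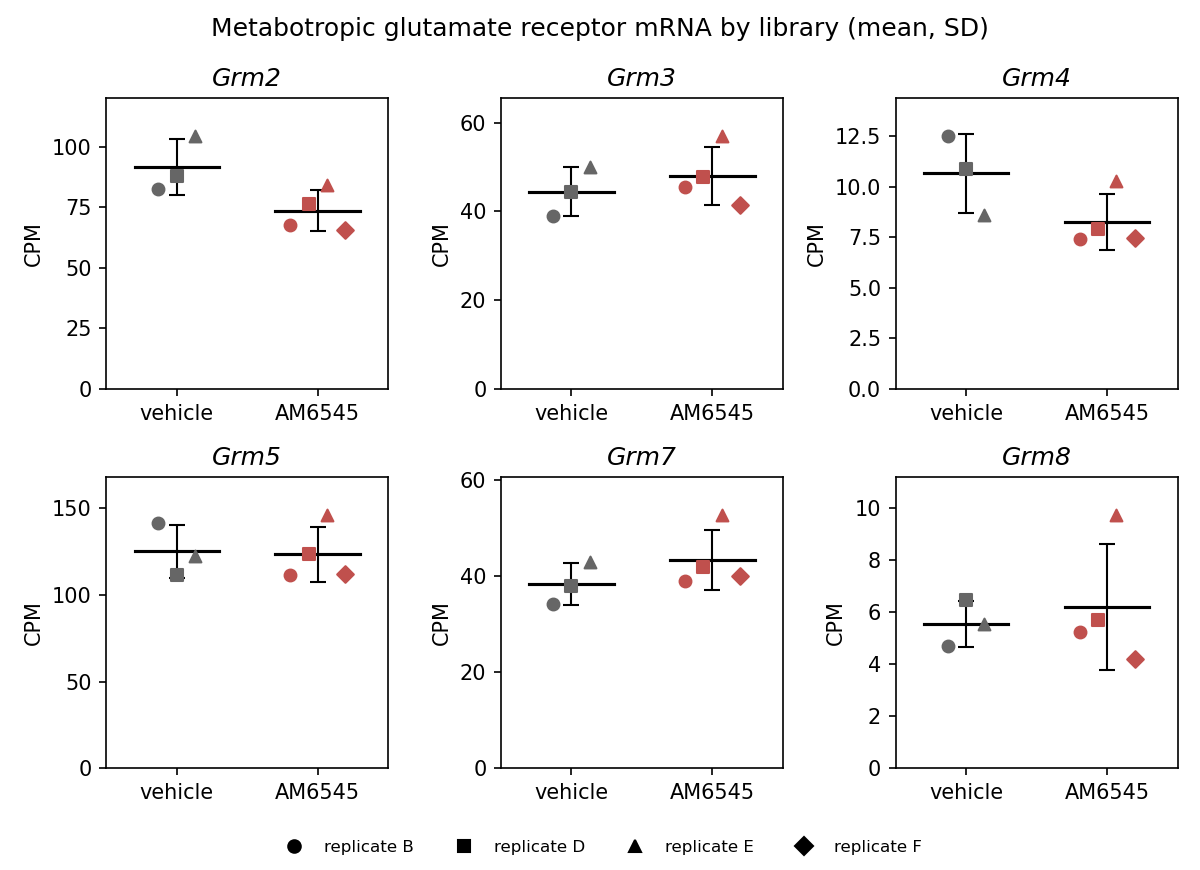
Level (CPM) of each receptor gene in the 3 vehicle (grey) and 4 AM6545 (red) libraries, with a bar at the group mean, an error bar of 1 SD and a shape for the replicate letter. The groups overlap for all 6 genes, and AM6545 E (red triangle) is the highest AM6545 library in each.

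**Figure D4:**
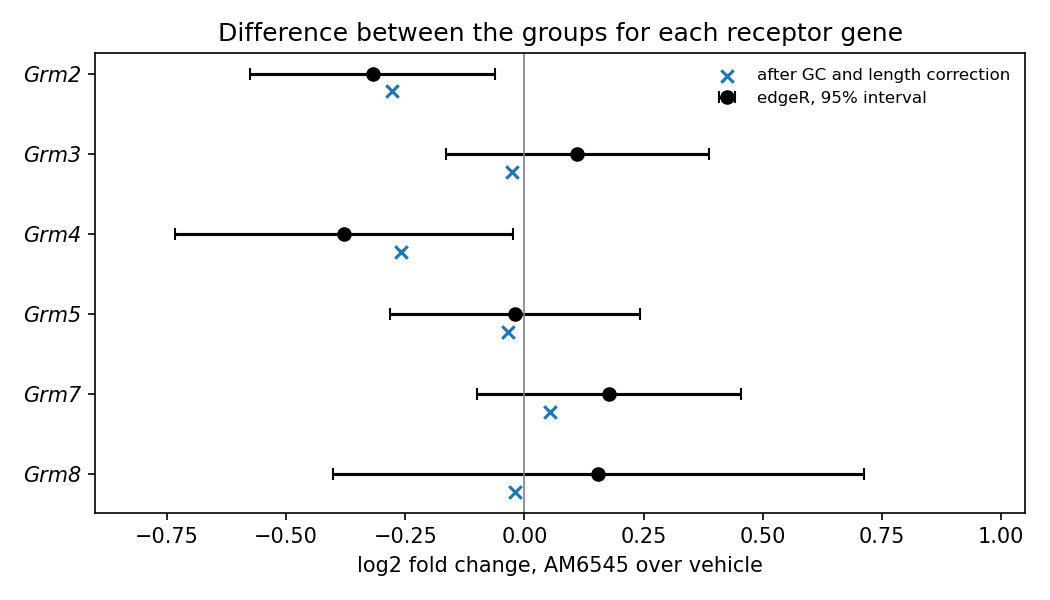
Log2 fold change of AM6545 over vehicle for each receptor gene, with black points for the edgeR estimate, bars for its 95% interval and blue crosses for the estimate after a GC and length correction. The intervals of Grm2 (-0.57 to -0.06) and Grm4 (-0.73 to -0.02) lie below 0 before adjustment for multiple testing, and the other 4 include 0.

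Replicate E of AM6545 was high across the receptors. It had the highest level of the 4 AM6545 libraries for 6 of 6 members, whereas it was highest for 28.9% of all genes tested. The coefficient of variation within AM6545 was 11.6% for Grm2 and 12.9% for Grm5 but 38.9% for Grm8, and within vehicle it ran from 11.6% for Grm7 to 18.3% for Grm4. A ratio of counts of 2 receptors in the same library is free of such shared scaling, so the 15 ratios between members were also described.

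Grm2 was low relative to Grm3 and to Grm7 in each AM6545 library. The ratio of Grm2 to Grm3 counts was 1.48, 1.60, 1.48 and 1.58 in AM6545 B, D, E and F and 2.12, 1.98 and 2.09 in vehicle B, D and E. That of Grm2 to Grm7 was 1.74, 1.83, 1.60 and 1.64 in AM6545 and 2.42, 2.32 and 2.43 in vehicle. In both ratios the groups were apart by more than the spread within either, with means of 1.54 ± 0.0635 and 2.06 ± 0.0703 for Grm2 to Grm3 and 1.70 ± 0.101 and 2.39 ± 0.0621 for Grm2 to Grm7 (SD, n = 4 and 3).

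The ratio of Grm4 to Grm7 was also separated, at 0.190, 0.190, 0.196 and 0.186 in AM6545 and 0.367, 0.288 and 0.201 in vehicle, though vehicle E was close to the AM6545 libraries. The other 12 ratios overlapped, among them Grm3 to Grm7, at 1.11 ± 0.0606 and 1.16 ± 0.0140. Such separation was seen in 10.5% of the ratios of a member to any other gene tested, in 31.3% of those with Grm2 and in 13.0% of those with Grm4, so the 3 of 15 are a description and were given no test. After the GC and length correction the Grm2 to Grm3 ratio was 1.56 to 1.68 in AM6545 and 1.85 to 2.02 in vehicle, and the Grm2 to Grm7 ratio 1.69 to 1.91 and 2.14 to 2.34, still without overlap (24.4% of ratios with Grm2 were then separated). The difference in the log2 ratio shrank from -0.43 to -0.25 and from -0.49 to -0.33, and the Grm4 to Grm7 ratio then overlapped.

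**Figure D5:**
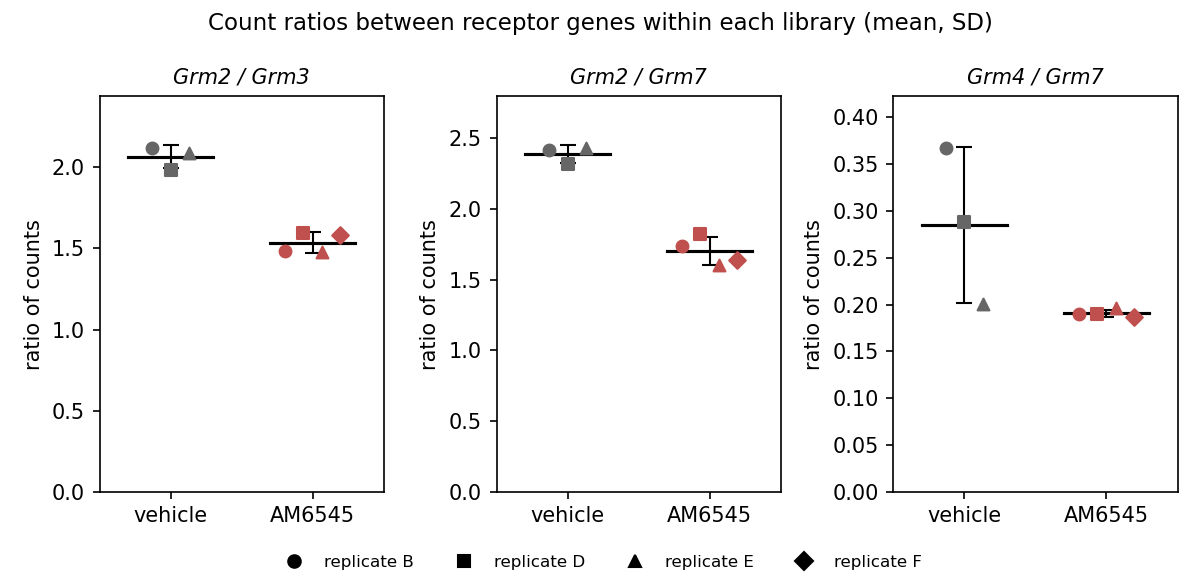
Ratio of counts between receptor genes within each library (grey vehicle, red AM6545, shape for the replicate letter), with a bar at the group mean and an error bar of 1 SD, for the 3 ratios whose groups do not overlap. Grm2 to Grm3 lies at 1.48 to 1.60 in AM6545 and 1.98 to 2.12 in vehicle.

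The members were also compared by sequence and base composition. Over the coding sequences of the main transcripts, aligned end to end, the group II pair Grm2 and Grm3 was 68.8% identical. The group III genes were 69.5% to 70.2% identical to each other, and pairs from different groups were 60.7% to 64.9% identical. Coding GC content was 60.7% in Grm2 and 60.3% in Grm4, against 47.4% (Grm8) to 51.6% (Grm5) in the others. Grm2 and Grm4, the members at an unadjusted p under 0.05, had the highest coding GC content. A link between base composition and the group difference was not tested.

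The genes whose log2 CPM followed each receptor most closely over the 7 libraries are given as a description, since all values share libraries and depth. They were picked for the highest r out of the whole table. With 7 libraries such a choice gives high values even for unrelated genes. The genes were Lgi3 (Pearson r = 0.980) and Lgmn (0.956) for Grm2, and Lrrtm4 (0.987) and Slc41a2 (0.981) for Grm3. For Grm4 they were Tmem163 (0.986) and Nwd2 (0.986), for Grm5 Abca5 (0.981) and Ptpre (0.980). For Grm7 they were Nfe2l1 (0.989) and Paxip1 (0.976), and for Grm8 Tgfbr3 (0.987) and Mfsd6 (0.967).

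Downstream of the group I receptor, no transduction gene passed the adjusted threshold. Of 16 genes of this list (Gq alpha subunits, phospholipase C beta, inositol trisphosphate receptors, protein kinase C, diacylglycerol lipases and Trpc channels), none was at an unadjusted p under 0.05, where 14.6% of all genes were, and the median log2 fold change was 0.01, as over all genes (0.01). The lowest p-values belonged to Itpr1, an inositol trisphosphate receptor of the endoplasmic reticulum, with a log2 fold change of -0.23 (standard error 0.11, adjusted p = 0.354, edgeR), and Dagla, which makes 2-arachidonoylglycerol, with -0.29 (standard error 0.14, adjusted p = 0.369). Without vehicle E, 4 of the 16 were at an unadjusted p under 0.05, as were 3810 of the 14807 genes then tested.

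Among the 13 anchors and desensitising proteins of group I receptors, 5 were lower and none higher at an unadjusted p under 0.05 (8.70% and 5.86% of all genes were), and none passed the adjusted threshold. The list's median log2 fold change was -0.04. Shank1, a postsynaptic scaffold linked to mGlu5 through Homer, had 113 CPM in AM6545 and 192 CPM in vehicle (log2 fold change -0.77, standard error 0.16, adjusted p = 0.199, edgeR). Shank3 had 15.9 and 28.0 CPM (-0.82, standard error 0.22, adjusted p = 0.205, edgeR). Homer2, Shank2 and Arrb1, a beta-arrestin, had log2 fold changes of -0.26, -0.30 and -0.28, while that of Homer1 was 0.11. With the GC and length correction 3 of the 13 were at an unadjusted p under 0.05, where 988 of all 14654 genes were. With the replicate letter as a factor in the fit 2 of the 13 were, against 1199 of all 14654 genes.

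Group II and group III receptors signal through Gi/o proteins to adenylyl cyclases and potassium channels. Of 19 such genes, 4 were higher and 4 lower at an unadjusted p under 0.05 (5.86% and 8.70% of all genes were), 6 estimates were above 0 and 13 below, none passed the adjusted threshold, and the median log2 fold change was -0.04. Gnai3, an inhibitory G protein alpha subunit, had 43.9 CPM in AM6545 and 33.3 CPM in vehicle (log2 fold change 0.40, standard error 0.11, adjusted p = 0.199, edgeR), and Gnai1, Gng2 and Rgs4 were the other 3 with higher values. The calcium-stimulated cyclase Adcy1 had 262 and 354 CPM (-0.43, standard error 0.11, adjusted p = 0.199, edgeR), and Adcy5, Adcy9 and Gng3 were also lower. With the GC and length correction 1 of the 19 was left at an unadjusted p under 0.05. In that setting 988 of all 14654 genes were, against 2134 without the correction.

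Of 12 partners of group III receptors, 2 were lower and none higher at an unadjusted p under 0.05 (8.70% and 5.86% of all genes were). The median log2 fold change was -0.08. Both encode subunits of presynaptic calcium channels: Cacna1a had 29.6 CPM in AM6545 and 39.6 CPM in vehicle (-0.42, standard error 0.12, adjusted p = 0.212, edgeR), and Cacna1b 18.0 and 24.9 CPM (-0.48, standard error 0.19, adjusted p = 0.305, edgeR). Elfn1 and Elfn2, which bind group III receptors across the synapse, had log2 fold changes of -0.16 and -0.27, and Pick1 0.09. None of these 3 was at an unadjusted p under 0.05.

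Of 15 effectors of receptor-dependent long-term depression and local translation, 2 were higher and 1 lower at an unadjusted p under 0.05 (14.6% of all genes were), and the median log2 fold change was 0.06. With the GC and length correction none was higher and 1 was lower, while 988 of all 14654 genes were at that p. Fmr1, whose protein represses translation downstream of mGlu5, had 50.02 CPM in AM6545 and 35.7 CPM in vehicle (0.49, standard error 0.14, adjusted p = 0.212, edgeR). Eif4e, the cap-binding initiation factor, had a log2 fold change of 0.23 (standard error 0.09, adjusted p = 0.272, edgeR), and Eef2, the elongation factor, -0.29 (standard error 0.12, adjusted p = 0.315). Arc, an immediate early gene used in mGlu5-dependent depression, had -0.10 (standard error 0.19, adjusted p = 0.830, edgeR).

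Of 12 genes that handle glutamate or N-acetylaspartylglutamate, the peptide that activates mGlu3, 2 were lower at an unadjusted p under 0.05 (8.70% of all genes were). None passed the adjusted threshold, and the median log2 fold change was 0.06. The astrocytic glutamine synthetase Glul had 225 CPM in AM6545 and 283 CPM in vehicle (-0.33, standard error 0.10, adjusted p = 0.235, edgeR), and the astrocytic glutamate transporter Slc1a2 was also lower (-0.45, standard error 0.15, adjusted p = 0.245). The other astrocytic transporter, Slc1a3, had 788 and 736 CPM (0.10, standard error 0.15, adjusted p = 0.777, edgeR). The summed astrocyte markers overlapped between the groups, at 2680 to 3621 CPM in AM6545 and 2822 to 3880 CPM in vehicle. Folh1, which degrades N-acetylaspartylglutamate, had a log2 fold change of 0.23 (standard error 0.14, adjusted p = 0.454, edgeR).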

How the data were processed

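Hippocampal synaptoneurosome RNA of 4 AM6545 and 3 vehicle libraries was analysed. The library kit was SMARTer Ultra Low Input, per the labels' protocols, and Salmon 1.5.2 and mm10 are named in the submitters' processing notes. The authors deposited estimated counts per gene and per transcript, unscaled, of which 83.5% (genes, values above 0) are fractional. The annotation release and the use of strand are not given in the sources used here.

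Names, structures, lengths and sequences came from GENCODE M21 (GRCm38). Ignoring versions, 22148 of 22248 genes and 101527 of 102392 transcripts matched. The deposited version was higher for 22135 genes, so gene models may differ. No RefSeq sequence was used.

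Counts were rounded, filtered with filterByExpr, scaled by TMM and tested with the robust quasi-likelihood test of edgeR 4.0.16 (with limma 3.58.1 in R 4.3.3) on all 7 libraries with no covariate, with p-values adjusted over all features. Standard errors were taken as the size of the log2 fold change over the root of its F statistic. Transcript usage was tested with diffSpliceDGE. Coding sequences were aligned with Biopython 1.88. The tests were tested on simulated data.

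Alternatives were other scalings, DESeq2 1.42.0, limma-voom, other filters, a replicate block, a GC and length correction (lowess, span 0.3), summed transcripts and leaving out each library. Ratios between members and their alternatives were added after seeing the data.

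The members and gene lists were chosen with earlier results of these data known. The text names all members, their transcripts with a mean of at least 10 counts, the 2 lowest p-values in each list and the 2 genes most correlated with each member. A gene of the glutamate handling list is not reported here. Other list genes and Grm5-201 were named after their values were seen.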

Additional observations from a re-analysis of the deposited data

Results flagged for a closer look

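Of 19 sets of 4 AM6545 values examined for a single library far from the others (the 6 gene levels and the shares of 13 transcripts within their genes), 2 had such a library; chance gives about 1 in 20. Grm8-202 took 92.5% of the Grm8 counts in AM6545 B, against 58.1% to 62.2% in the other 3 AM6545 libraries. Grm8-203, its near-identical partner, was at 0 counts in that library. Grm4-201 took 100% of the Grm4 counts in AM6545 E, against 73.0% to 74.6% in the others, where Grm4-206 or Grm4-207 held the rest.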

How the results depend on the processing

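No receptor gene, transcript or usage test passed an adjusted p of 0.05 under any setting run. Grm2, Grm4 and Grm7 kept their direction throughout. The Grm3 fold change (log2) turned to -0.026 with the GC and length correction. That of Grm5 turned to 0.022 with total-count scaling, 0.076 with limma-voom, 0.022 with the replicate block and 0.012 with the block and the correction, and spanned -0.11 to 0.082 when single libraries were left out. That of Grm8 turned to -0.12 with limma-voom and -0.020 with the correction, and spanned -0.14 to 0.31. Grm5-206 turned to 0.022 with total counts and 0.30 with the replicate block (leave-one-out -0.39 to 0.69), and Grm8-201 to 0.075 with the block (-1.15 to 0.35). Grm5-202 spanned -0.12 to 0.083.

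Of all genes 1 passed; DESeq2 called 247, limma-voom 394, a minimum mean of 50 counts 2 and the GC and length correction 0, and leaving out single libraries gave 0 to 944, the last without vehicle E. With longest-transcript lengths, Grm5 over Grm3 was 0.969 and Grm3 over Grm7 1.58. Over all genes, 2134 were at an unadjusted p under 0.05 in the main fit and 2047 with total counts. With the block 1199 were, and with the correction 988. When single libraries were left out 954 to 3810 were, the most without vehicle E. List genes at an unadjusted p under 0.05 numbered 0 to 4 for group I transduction when libraries were left out. For the anchors they numbered 3 with total counts, 2 with the block, 3 with the correction and 2 to 6. For Gi/o transduction they were 5, 1 and 5 to 8 (block, correction, left-out libraries), for the partners of group III receptors 1 with the block and 1 to 6, and for the depression and translation effectors 1, 1 and 1 to 4. The causes were not tested. The labels do not say whether the replicate letters pair the samples. Same-letter deviations correlated at -0.26 (B), -0.13 (D) and -0.18 (E), and different-letter ones at -0.17 to 0.22. With 3 shared letters these values cannot decide it. With the replicate block the Grm2 fold change was -0.27 (unadjusted p = 0.0667, edgeR), that of Grm4 -0.33 (0.162), so 0 members were left at an unadjusted p under 0.05, and that of Grm5-204 1.12 (0.0392, adjusted p = 0.882).

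Grm4 and Grm8 rest on at most 311 counts a library, which limits their precision.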
